A study of Mus musculus with 12 samples.

Results

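Isolated loci are transcribed stretches of the mouse genome that stand at least 200 kb from the nearest other locus on both sides. All listed transcripts that overlapped on either strand were joined to loci, and the loci of chromosomes 1 to 19 with that distance on each side were kept. Of 23995 loci, 429 met the rule, and the other 23566 are the loci they are set beside. The rule used positions and no measured level. Distances run to loci of the deposited annotation, so a gap may hold transcripts that it does not list. The isolated locus nearest to the limit stood 200089 bases from its neighbour, and the nearest locus outside it stood 199255 bases away. Within 10 kb of the limit lay 23 isolated loci and 20 autosomal loci that just missed it.

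Long stretches without genes, known as gene deserts, often flank genes for developmental transcription factors and signalling molecules, and distant enhancers of such genes can lie within them. Polycomb group proteins keep many developmental regulators silent in cells that do not use them, and EED is a core subunit of the Polycomb complex that methylates histones. In the newborn kidney, Six2 marks progenitor cells that give rise to the epithelium of the nephron.

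RNA was sequenced from cells of newborn mouse kidneys, labelled P0. All samples were Six2-expressing cells with the R26R-tdTomato reporter, sorted by flow cytometry, and their source is labelled as fetal kidney cells. By their titles they formed 4 groups, which were mutant low (n = 4), control low (n = 4), mutant high (n = 2) and control high (n = 2) cells, where low and high name an expression level of a signal that the labels do not state. Eed stands in the title of the series only, and the labels give no allele, strain or driver for the mutant samples. Whether a sample is its own animal, or a pool, is not stated, so a p-value here measures no more than the spread of the samples, and that spread may be technical. The table pairs its transcript identifiers with no gene names, so neither the tissue nor the mutated gene was checked by markers. Loci are therefore given by position in mm9 as deposited, and whether starts count from 0 or 1 is not stated.

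Libraries held 4549011 to 12365078 fragments in all. Chromosome M took 4.51% and 10.3% of the 2 control high libraries, and 0.494% to 1.96% of the other 10. Levels are given as CPM, counts divided by a library size that TMM factors adjust, and they follow locus length as well as abundance, so they are compared only between groups at the same locus. In such bulk samples, fewer cells of a type and less RNA per cell cannot be told apart.

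Isolated loci were long. Their median span was 47.2 kb, against 12.9 kb for the other loci, and 107 of them (24.9%) spanned over 200 kb, against 3.93% of the others. A single transcript made up 53.6% of isolated and 52.3% of other loci. Transcripts ran on the plus strand in 179 isolated loci, on the minus strand in 211 and on both strands in 39. The median distance to the nearer neighbour was 329 kb, the largest was 2108 kb, and 109 loci had at least 500 kb on both sides.

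Many isolated loci were silent or nearly so in these cells. No library held a fragment at 127 of them (29.6%), compared with 25.9% of the other loci. At least 1 CPM was reached on average by 158 isolated loci in mutant low cells and 148 in control low cells, and by 179 in mutant high cells and 152 in control high cells. These were 36.8%, 34.5%, 41.7% and 35.4% of isolated loci, against 46.9%, 47.3%, 49.8% and 48.0% of the other loci in the same 4 groups. The mutant groups thus had more isolated loci at that level than their controls. The filter on low counts kept 191 isolated loci (44.5%) and 12365 other loci (52.5%), and all tests below concern these. A locus can pass that filter through the group in which it is high alone, so the 191 do not stand for all 429.

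The share of all fragments that fell on isolated loci was near 1% in low cells. It was 0.996% ± 0.047 in mutant low and 1.01% ± 0.051 in control low cells (SD, n = 4 each), with ranges of 0.933% to 1.05% and 0.942% to 1.05% that overlapped. In high cells it was 0.895% and 0.900% in the mutant libraries and 0.709% and 0.599% in the control libraries. Both control high libraries thus lay under all other libraries. With chromosome M left out of the totals, the shares were 0.906% and 0.907% in mutant high and 0.743% and 0.667% in control high cells. In every library the 10 most abundant isolated loci took 42.5% to 53.7% of the fragments on isolated loci.

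**Figure D1:**
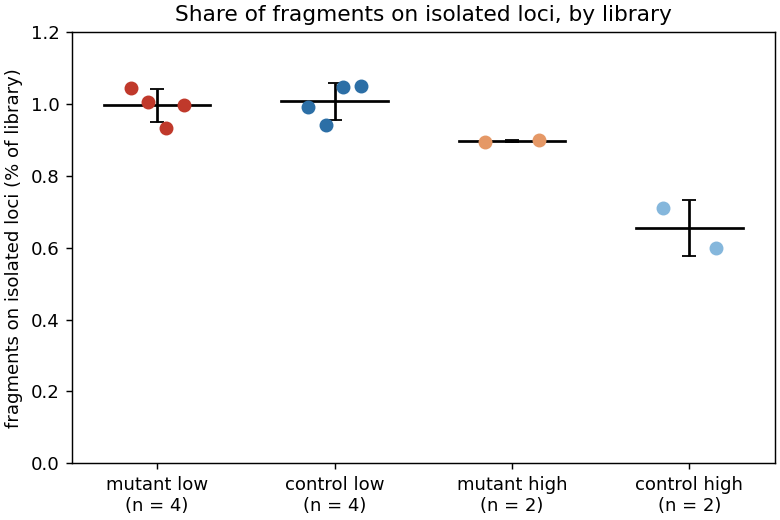
Percent of each library's fragments on the 429 isolated loci (vertical axis), by group (horizontal axis). Points are libraries, wide bars are group means and thin bars are 1 SD. The control high libraries lie lowest, at 0.709% and 0.599%, and the 8 low libraries lie between 0.933% and 1.05%.

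The first comparison set mutant against control cells of the low population. Of the 191 isolated loci tested, 33 passed an adjusted p of 0.05 (edgeR's quasi-likelihood test, Benjamini-Hochberg over all 12556 loci tested), 22 higher and 11 lower in mutant low cells. That was 17.3%, beside a background of 8.65% over all loci tested. The 22 higher loci made up 11.5% of isolated loci tested, beside 5.11%, and the 11 lower ones 5.76%, beside 3.54%. The median log2 fold change of the 191 was -0.08, against -0.06 over all loci tested, and the median absolute value was 0.48 against 0.33. With the loci that had no fragment in a group set at their bound, the medians were -0.07 and -0.06. The count was 21 of 151 (13.9%, against 6.03% of all loci) in the low libraries with description numbers up to 7, and 28 of 164 (17.1%, against 6.73%) in those above 7. With only the 8 libraries whose description numbers occur in both populations, 2 per group, it was 6 of 182 (3.30%, against 2.04%), and all 6 were higher. No isolated locus was then called lower by edgeR, while 13 were lower at an unadjusted p under 0.05.

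Calls were also counted over the distance to the nearer neighbour, for every autosomal locus tested. In low cells the percentage called was 4.73 at under 1 kb, 7.89 at 1 to 10 kb, 11.7 at 10 to 50 kb, 16.0 at 50 to 100 kb and 14.9 at 100 to 200 kb. Among the isolated loci it was 13.8 at 200 to 300 kb, 20.6 at 300 to 500 kb and 18.8 at 500 kb or more. The percentage was thus lowest among the most crowded loci, and the 5 classes from 50 kb upwards lay between 13.8 and 20.6. The median span was also larger at larger distances, at 17.9 kb under 1 kb, 76.4 kb at 100 to 200 kb and 149 kb at 300 to 500 kb. Among loci spanning 10 to 50 kb, 24.2% of 33 isolated and 7.26% of 5678 other loci were called. Among those over 200 kb it was 16.9% of 77 isolated and 13.8% of 732 other loci. At spans of 50 to 200 kb it was 12.1% of 58 isolated and 8.79% of other loci, and up to 10 kb 21.7% of 23 and 9.38%. Isolated loci with a mean above 20 CPM over the 12 libraries were called in 17 of 76 cases (22.4%), against 7.59% of other loci at that level. These shares are descriptions, and no test of the isolated set against the others was made.

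**Figure D2:**
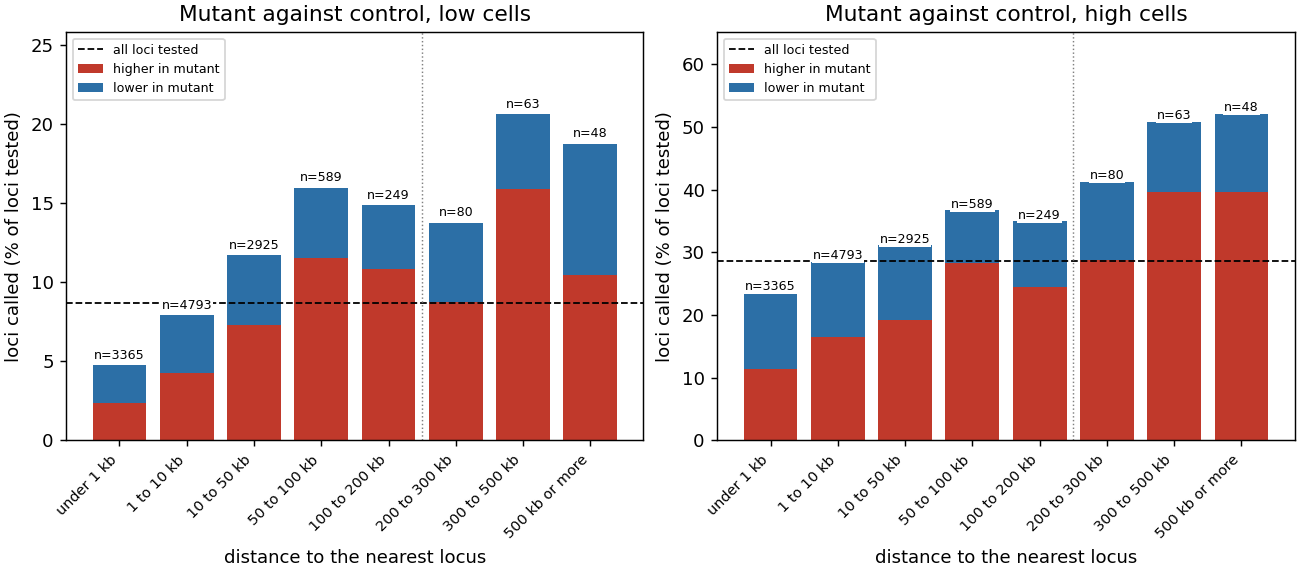
Percent of autosomal loci tested that passed an adjusted p of 0.05 for mutant against control cells (vertical axis), by distance to the nearer neighbouring locus (horizontal axis), in low cells (left panel) and high cells (right panel). Red parts are higher and blue parts lower in mutant cells, dashed lines are the background over all loci tested, n counts loci, and the dotted line marks 200 kb. In low cells the bars lie between 4.73% and 20.6%, and in high cells between 23.6% and 52.1%.

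Among isolated loci that rose in mutant low cells, several stood near zero in control low cells. The transcript uc007nmf.2 (chromosome 12, 50483869 to 50508333, plus strand) lies 2564 kb and 934 kb from its neighbours. It had 3.80, 3.20, 4.51 and 5.08 CPM in mutant low cells, against 0, 0.136, 0 and 0 CPM in control low cells. A lone fragment in control low replicate 2 was the whole control signal, so the ratio of fragments was 160 with an exact binomial interval of 28.4 to 6373 at 95%, which covers counting error only. The call had an edgeR adjusted p of 0.000153. The transcript uc011zpr.1 (chromosome 14, 112074336 to 112082357, plus strand) had 2.42, 2.75, 1.65 and 2.42 CPM in mutant low cells, against 0.117, 0.136, 0.108 and 0.082 CPM in control low cells. The log2 fold change was 4.24 (SE 0.54, edgeR adjusted p = 0.000188), and the groups did not overlap at either locus.

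The other 6 loci with the largest rises ran from clear background to moderate levels. A locus of 10 transcripts on chromosome 4 (81936076 to 82151212, minus strand) was the most abundant of them. It had 81.1, 62.5, 91.7 and 99.2 CPM in mutant low cells, against 3.64, 7.09, 8.02 and 8.28 CPM in control low cells. The log2 fold change was 3.62 (SE 0.27, edgeR adjusted p = 3.72e-06), and every mutant library lay more than 50 CPM above every control library. A locus of 1098 kb on chromosome 6 (76831630 to 77929661, both strands) had 36.1, 16.6, 37.1 and 32.0 CPM in mutant low cells, against 1.41, 1.64, 3.47 and 1.97 CPM in control low cells. Its log2 fold change was 3.83 (SE 0.41, edgeR adjusted p = 5.46e-05), with mutant replicate 2 the lowest of the mutant libraries but still above all controls. Reads of overlapping transcripts on opposite strands cannot be told apart there, since no use of strand is stated.

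On chromosome 11 (92959723 to 93463065, plus strand) the levels were 2.88, 2.75, 3.19 and 4.60 CPM in mutant low cells, against 0.235, 0, 0.542 and 0 CPM in control low cells. The log2 fold change was 4.05 (SE 0.68, edgeR adjusted p = 0.00195), and 5.29 without control low replicate 3, which held most of the control signal. A second locus of chromosome 4 (90917456 to 91066675, minus strand) averaged 9.70 ± 2.37 CPM in mutant low and 1.46 ± 0.394 CPM in control low cells (SD, n = 4 each; log2 fold change 2.74, SE 0.35). Smaller rises that met the same criteria were on chromosome 18 (11049084 to 11085633), with a log2 fold change of 2.35 (SE 0.46), and on chromosome 7 (37483136 to 37558476), with 2.19 (SE 0.40). None of these 8 calls was lost when any 1 of the 12 libraries was left out. In the set of 8 libraries, 2 per group, the calls on chromosomes 11 and 7 and at 90917456 of chromosome 4 were lost (edgeR adjusted p = 0.132, 0.18 and 0.0601), and the chromosome 18 call was lost in the libraries with numbers above 7 (edgeR adjusted p = 0.0707).

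Isolated loci that fell in mutant low cells included some that were barely present in low cells at all. The transcript uc007vsn.1 (chromosome 15, 57075325 to 57309180, minus strand) had 0.576, 0, 0.110 and 0.0807 CPM in mutant low cells, against 2.11, 1.5, 0.976 and 2.21 CPM in control low cells. The log2 fold change was -3.07 (SE 0.58, edgeR adjusted p = 0.00346), and -4.32 without mutant low replicate 1. The transcript uc009kub.1 (chromosome 8, 5085622 to 5105232, minus strand) had 0.231, 0.458, 0.330 and 0 CPM in mutant low cells, against 0.822, 1.23, 0.976 and 1.31 CPM in control low cells (log2 fold change -2.21, SE 0.55, edgeR adjusted p = 0.0209). Neither pair of groups overlapped. In control high cells the chromosome 15 transcript averaged 81.1 ± 26.3 CPM and the chromosome 8 transcript 98.8 ± 40.4 CPM (SD, n = 2), far more than in either low group. The call on chromosome 8 was lost without control low replicate 2, control low replicate 4 or mutant low replicate 1 (edgeR adjusted p = 0.0536, 0.0576 and 0.0575).

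Other falls were at higher levels. A single transcript on chromosome 9 (23027519 to 23289646, plus strand) had 21.6, 22.3, 6.48 and 16.5 CPM in mutant low cells, against 53.5, 55.8, 72.3 and 65.9 CPM in control low cells (log2 fold change -1.89, SE 0.36, edgeR adjusted p = 0.00349). On chromosome 6 (117118552 to 117131386, plus strand) the levels were 41.1, 32.8, 27.4 and 30.5 CPM in mutant low cells, against 79.7, 69.7, 64.6 and 67.9 CPM in control low cells. The log2 fold change was -1.10 (SE 0.23, edgeR adjusted p = 0.00729), and in both cases all mutant libraries lay under all control libraries. The chromosome 5 locus (51845487 to 51945160) averaged 2.98 ± 1.08 CPM in mutant low and 9.24 ± 5.49 CPM in control low cells (SD, n = 4 each; log2 fold change -1.62). In the set of 8 libraries with shared description numbers, the adjusted p in edgeR was 0.352, 0.281, 0.0775, 0.299 and 0.0684 for the falls on chromosomes 15, 8, 9, 6 and 5, so none of these calls was kept. Those on chromosomes 15 and 5 were also lost in the low libraries with numbers up to 7 (edgeR adjusted p = 0.152 and 0.261), and that on chromosome 8 in those above 7 (edgeR adjusted p = 0.0957).

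Weaker falls rested on the choice of libraries. A locus on chromosome 10 (99478457 to 99563046) fell by 1.70 on the log2 scale (SE 0.43), and the call was lost without control low replicate 3 or 4 or mutant low replicate 1 or 4 (edgeR adjusted p = 0.0521 to 0.0665). At another on chromosome 10 (22823973 to 23070592, minus strand) the levels were 13.8, 17.1, 13.7 and 10.2 CPM in mutant low cells, against 34.5, 26.7, 31.5 and 29.8 CPM in control low cells. The groups did not overlap and the log2 fold change was -1.16 (SE 0.31, edgeR adjusted p = 0.0285), but the call was kept only without mutant low replicate 2 or a control high library, and was lost without any of the other 9 libraries (edgeR adjusted p = 0.0505 to 0.127). The fall with the largest adjusted p of the 8 was on chromosome 11 (71564204 to 71603148; log2 fold change -1.38, SE 0.40, edgeR adjusted p = 0.0459). It was kept only without mutant low replicate 1 or 2 or control low replicate 4, and was lost without any of the other 9 libraries (edgeR adjusted p = 0.0617 to 0.173), with RLE scaling (0.053) and in a fit of the low groups alone (0.0915). All 3 of these falls were also lost in the set of 8 libraries (edgeR adjusted p = 0.0679 to 0.446) and in the low libraries with numbers up to 7 (0.0598 to 0.137).

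**Figure D3:**
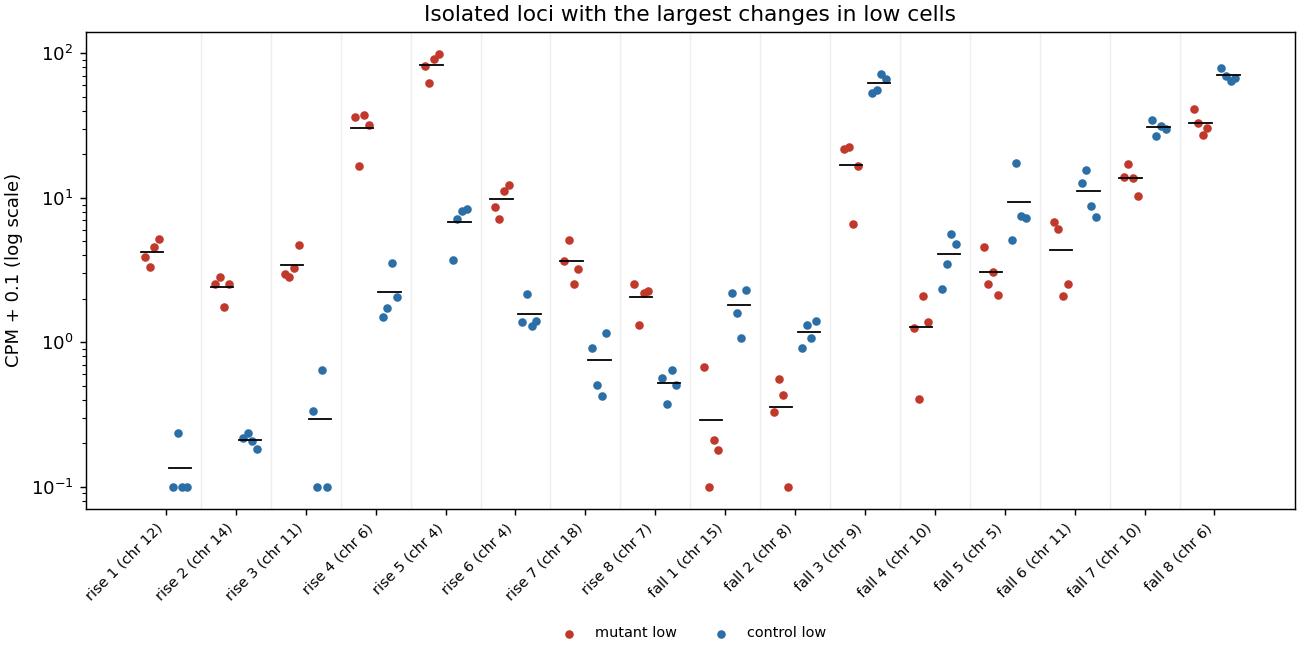
Level in CPM plus 0.1 on a log scale (vertical axis) of the 8 isolated loci with the largest rises and the 8 with the largest falls in mutant low cells (horizontal axis, with the chromosome). Red points are the 4 mutant low libraries, blue points the 4 control low libraries, and bars are group means. The groups do not overlap at any of the 16 loci, which the naming rule required.

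The next loci along the chromosome were read in the same test. Over all loci tested in low cells, 5.11% were higher and 3.54% lower. The 22 higher loci had 23 neighbours that were tested, and 0 of these were called in either direction in edgeR's test. At an unadjusted p under 0.05, 1 neighbour was higher and 1 lower, and DESeq2 called 0. The 11 lower loci had 12 neighbours tested, of which 3 (25%) were called lower. Of these, 2 were a pair of isolated loci on chromosome 15 (56497181 to 56526101 and 57075325 to 57309180), which are each other's neighbours at 549 kb, with log2 fold changes of -0.87 and -3.07. The third lay 452 kb from the chromosome 6 locus described above, at 116642742 to 116666776 (log2 fold change -3.50, edgeR adjusted p = 0.00186). Around the 158 isolated loci that were not called, 16 of 176 neighbours tested were higher and 8 were lower.

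A group of isolated loci was near absent in 1 genotype and present in the other. Switched on is used for a call with a log2 fold change of at least 2, under 0.5 CPM in control and at least 1 CPM in mutant cells, and switched off for the reverse. In low cells 5 isolated loci were switched on (2.62% of those tested, against 0.844% of all loci tested) and 2 were switched off (1.05%, against 0.581%). The 5 had 1.31 to 4.15 CPM in mutant low and 0.0341 to 0.424 CPM in control low cells. None of the 5 averaged 1 CPM or more in control high cells. The 2 switched off were the chromosome 15 and chromosome 8 transcripts named above, which were abundant in control high cells.

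The same comparison in the high population gave more calls. There, 90 of 191 isolated loci passed edgeR's test, 67 higher and 23 lower in mutant high cells. That was 47.1%, beside a background of 28.6% over all loci tested. Higher loci made up 35.1%, beside 16.9%, and lower loci 12%, beside 11.8%. The median log2 fold change was 0.50 for isolated loci and 0.08 for all loci tested (0.47 and 0.07 with loci at 0 in a group set at their bound), and the median absolute value was 1.34 against 0.75. With the trend of the libraries on locus span removed, the split was 49 higher and 27 lower (39.8% called, against 27.6% of all loci). The isolated median was then 0.12, against -0.02 over all loci. Each group held 2 libraries. Leaving out any 1 high library left a group of 1, and a smaller share of isolated loci and of all loci was then called.

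The percentage called in high cells was 23.6 under 1 kb, 28.5 at 1 to 10 kb, 31.1 at 10 to 50 kb, 36.7 at 50 to 100 kb and 34.9 at 100 to 200 kb. In the 3 isolated classes it was 41.3 at 200 to 300 kb, 50.8 at 300 to 500 kb and 52.1 at 500 kb or more. All 3 stood above the classes under 200 kb. Among loci with a mean above 20 CPM, 38 of 76 isolated loci were called, against 29.0% of other loci at that level. Above 2 to 20 CPM it was 47.8% of 69 isolated and 29.7% of other loci, and up to 2 CPM 41.3% of 46 and 22.2%. Among loci spanning over 200 kb it was 42.9% of isolated and 35.4% of other loci. At spans of 50 to 200 kb it was 48.3% and 28.4%, at 10 to 50 kb 51.5% and 26.6%, and up to 10 kb 52.2% and 30.0%.

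At 18 isolated loci (9.42% of those tested, against 2.80% of all loci tested) the high cells showed a switch on, and at 3 (1.57%, against 0.605%) a switch off. The 18 had 1.41 to 3.26 CPM in mutant high cells and no more than 0.389 CPM in control high cells, where 5 of them lacked any fragment. Against a floor of 3 fragments over the 2 control high libraries, those 5 were at least 9.73-fold higher (uc007nmf.2 on chromosome 12), at least 6.88-fold (chromosome 18, 86880501 to 86887675), at least 5.24-fold (chromosome 9, 87597634 to 87626095), at least 5.39-fold (chromosome 2, 147868613 to 147872705) and at least 4.94-fold (chromosome 13, 117088477 to 117099896). These bounds changed with the libraries used. Leaving out any 1 of the 4 high libraries gave bounds of 3.41 to 14.7 for uc007nmf.2, 2.90 to 9.61 for chromosome 18, 2.20 to 6.47 for chromosome 9, 2.27 to 6.94 for chromosome 2 and 2.08 to 5.79 for chromosome 13. Without mutant high replicate 1, which held 36 of the 46 fragments on chromosome 18, the bound there was 3.41. After TMM adjustment the control high libraries had the smallest library sizes of the series, so a level of a few fragments there is weakly measured. Of the 18, 9 stood at 1 CPM or more in control low cells, so their low level was a feature of control high cells and not of all control cells. An example is on chromosome 15 (64530596 to 64753858), with 1.83 and 1.11 CPM in mutant high cells, against 0.207 and 0 CPM in control high cells. Control low cells had 7.89 ± 1.82 CPM there (SD, n = 4).

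Per library, uc007nmf.2 had 5.29 and 1.23 CPM in mutant high cells, against 0 and 0 CPM in control high cells (edgeR adjusted p = 0.00365). The chromosome 6 locus at 76831630 had 36.1 and 32.0 CPM in mutant high cells, against 2.70 and 0.286 CPM in control high cells. Its log2 fold change was 4.39 (SE 0.64, edgeR adjusted p = 0.000355), and leaving out control high replicate 1 or 2 gave 6.84 or 3.65, so its size depended on which control library was used. At 90917456 of chromosome 4 the levels were 1.92 and 3.68 CPM in mutant high cells, against 0.207 and 0 CPM in control high cells, a ratio of 22.4 with an exact binomial interval of 3.85 to 904. These 3 calls were kept in all settings tried. The calls on chromosomes 18, 9 and 13 were lost without control high replicate 1 (edgeR adjusted p = 0.118, 0.0615 and 0.0576), the chromosome 18 call also without control high replicate 2 or mutant high replicate 1 (edgeR adjusted p = 0.099 and 0.1), and the chromosome 2 call without any of the 4 high libraries (edgeR adjusted p = 0.0574 to 0.138). The last of the 8 largest rises, on chromosome 12 (120681882 to 120705405), rested on a lone control high fragment, with a ratio of 13 and an exact binomial interval of 2.16 to 532. Its call was lost in 12 of 21 settings, among them without any of the 4 high libraries, control low replicates 2, 3 and 4 or mutant low replicate 2 (edgeR adjusted p = 0.0507 to 0.209).

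Of the 8 largest falls in high cells, 3 were at loci that were abundant in control high cells and far lower in both low groups. The chromosome 15 transcript uc007vsn.1 had 4.23 and 6.02 CPM in mutant high cells, against 99.7 and 62.5 CPM in control high cells (log2 fold change -3.99, SE 0.55, edgeR adjusted p = 0.000249). A single transcript on chromosome 8 (56040080 to 56146231, plus strand) had 67.2 and 80.8 CPM in mutant high cells, against 714 and 260 CPM in control high cells (log2 fold change -2.72, SE 0.50, edgeR adjusted p = 0.00152). Its control libraries differed widely, and without control high replicate 1 the value was -1.80. On chromosome 4 (25536479 to 25727150, minus strand) the levels were 24.4 and 26.2 CPM in mutant high cells, against 152 and 99.7 CPM in control high cells (log2 fold change -2.32, SE 0.52, edgeR adjusted p = 0.00498). All 3 calls were kept in every setting tried.

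The remaining 5 of the 8 largest falls were at low levels, and that on chromosome 7 had the largest fitted fold change of all 8 (log2 -4.39). A transcript on chromosome 7 (78015885 to 78060549) had 0 and 0.246 CPM in mutant high cells, against 1.87 and 3.43 CPM in control high cells, and the ratio of control to mutant fragments was 23.4 with an exact binomial interval of 5.72 to 206. Those on chromosomes 9 (46721685 to 46735449) and 16 (55225287 to 55283396) had 0.438 ± 0.0752 and 0.342 ± 0.211 CPM in mutant high cells, against means of 4.72 ± 1.83 and 3.22 ± 1.32 CPM among control high libraries (SD, n = 2 each). These 3 loci were the ones switched off. On chromosome 1 (187911610 to 187941189) and at 99478457 of chromosome 10 the log2 fold changes were -2.74 (SE 0.63) and -2.35 (SE 0.61). Each of these 5 calls was lost without at least 1 of the high libraries. In edgeR's test the lost adjusted p was 0.0987 without mutant high replicate 1 on chromosome 7, 0.0627 without mutant high replicate 2 on chromosome 1, and 0.0755 without control high replicate 2 or 0.0763 without mutant high replicate 2 on chromosome 10. It was 0.057 to 0.0761 without control high replicate 1 or either mutant high replicate on chromosome 9, and 0.0548 to 0.157 without any of the 4 on chromosome 16.

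In high cells, 16.9% of all loci tested were higher and 11.8% lower. Of 79 neighbours tested beside the 67 higher loci, 21 were higher and 9 lower. Beside the 23 lower loci, 7 of 24 were higher and 2 lower, and beside the 101 loci not called, 30 of 108 were higher and 8 lower. The percentages higher were 26.6, 29.2 and 27.8 beside the 3 kinds of isolated locus. Among 22 pairs of isolated loci that follow each other along a chromosome and were both tested, 4 pairs moved the same way and 4 in opposite directions in high cells, and 1 pair moved the same way and 0 in opposite directions in low cells.

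Isolated loci called in both populations were mostly called in the same direction. The mutant effects in low and high cells share no library, but both populations may come from the same animals, which no label settles. Description numbers 5 and 7 each occur at a mutant low and a mutant high library. Numbers 6 and 8 each occur at a control low and a control high library. What a shared number means is not stated, and no fit here, including those of high against low cells, paired libraries by it. Called higher in both were 15 loci, which is 68.2% of the 22 higher in mutant low and 22.4% of the 67 higher in mutant high cells. Called lower in both were 4, which is 36.4% of the 11 and 17.4% of the 23. Over all loci tested 407 were higher and 207 lower in both, which is 63.4% of the loci higher and 46.6% of those lower in mutant low cells. The sign of the effect was the same in high cells at 72.7% of isolated loci called in low cells, against 82.2% of all loci so called. Among loci called in high cells it was the same in low cells at 67.8% of isolated loci, against 74.1%. Isolated loci that were called thus shared their sign less often than all loci did. The 15 included the chromosome 12, chromosome 6 and both chromosome 4 loci named for low cells. They also included loci with small and even effects, such as that on chromosome 1 (90967036 to 91050368, plus strand). It had 185, 187, 278 and 210 CPM in mutant low, against 92.1, 109, 109 and 117 CPM in control low cells, and 228 and 195 CPM in mutant high, against 112 and 96.5 CPM in control high cells. Its log2 fold change was 1.01 in low and 1.02 in high cells (edgeR adjusted p = 0.00271 and 0.00979).

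**Figure D4:**
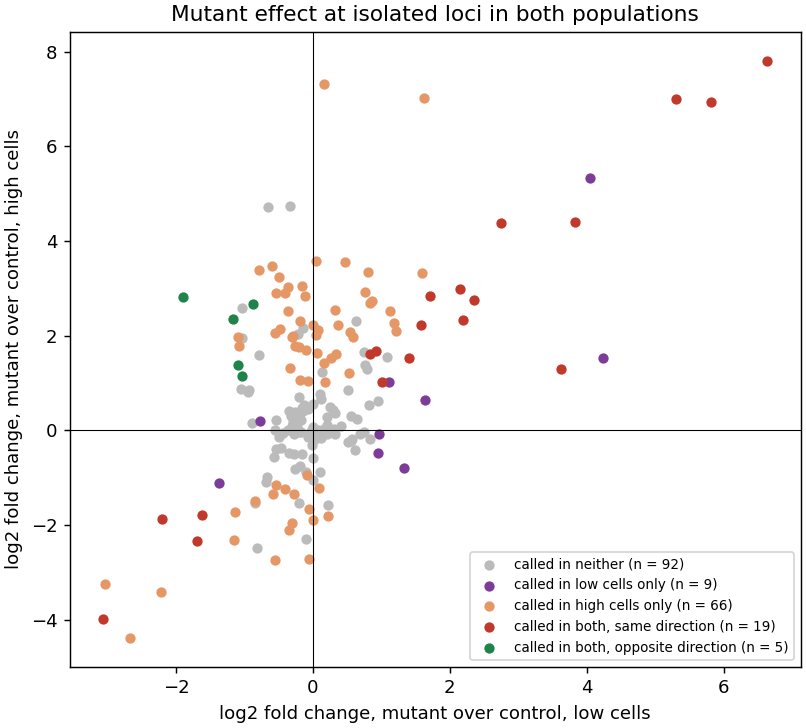
Log2 fold change of mutant over control cells in low cells (horizontal axis) and in high cells (vertical axis) for the 191 isolated loci tested, with colours for the populations in which a locus was called. Of them, 19 were called in both in the same direction, 5 in both in opposite directions, 66 in high cells alone, 9 in low cells alone and 92 in neither. Fitted values of loci without a fragment in a group are plotted as fitted.

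Opposite calls ran in 1 direction. No isolated locus was higher in mutant low and lower in mutant high cells, by edgeR at the adjusted or at an unadjusted p under 0.05 or by DESeq2, while 5 were lower in mutant low and higher in mutant high cells. Over all 12556 loci tested the counts were 17 and 46. The first kind was thus rare among all loci too, and its absence among the 191 isolated loci sets nothing apart. The 5 were singled out after their values were seen, and opposite calls all but fix a difference between the 2 mutant effects, so those differences are given as descriptions. They are the chromosome 9 locus at 23027519, the chromosome 10 locus at 22823973, the chromosome 6 locus at 117118552, the chromosome 15 locus at 56497181 and a locus on chromosome 16 (73892550 to 74411157, minus strand). At the chromosome 9 locus the levels were 12.7 and 13.4 CPM in mutant high, against 2.90 and 0.571 CPM in control high cells (log2 fold change 2.81, SE 0.61, edgeR adjusted p = 0.00408). In low cells the values above give -1.89 there, so the 2 effects differed by 4.70 (SE 0.71).

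In the chromosome 16 locus, 168, 162, 121 and 168 CPM in mutant low cells stood against 271, 324, 364 and 307 CPM in control low cells, and 51.7 and 34.9 CPM in mutant high cells against 26.8 and 12 CPM in control high cells. The log2 fold changes were -1.03 and 1.15, and their difference was 2.18 (SE 0.42). At the chromosome 10 locus the levels were 4.04 and 4.42 CPM in mutant high, against 1.45 and 0 CPM in control high cells, and at the chromosome 6 locus 188 and 100 CPM, against 67.6 and 42.8 CPM. Of the 5 loci, 4 were called lower in high than in low control cells. At those 4 the mean mutant levels lay between the 2 control levels in each population. The choice of these loci fixes 1 side of that, and the same was not counted over all loci tested. The locus not called lower in high control cells was that on chromosome 6. Its control levels were 55.2 ± 17.5 CPM in high (n = 2) and 70.5 ± 6.50 CPM in low cells (SD, n = 4).

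The mutant effect differed between populations at 40 isolated loci by the interaction test, which is 20.9% of those tested, beside a background of 11.2%. It was more positive in high cells at 33 (17.3%, beside 7.82%) and more negative at 7 (3.66%, beside 3.33%). Of the 33, 32 were called higher in mutant high cells, 5 were called lower in mutant low cells and 29 were called lower in high than in low control cells. All 7 with the opposite sign were called higher in high than in low control cells. These comparisons share the control high libraries, so their counts are given side by side only. The same counts were not made over all loci tested, so they set nothing apart at isolated loci. With the span trend removed the split was 20 and 13 (17.3% called, against 10.6% of all loci). Leaving out mutant high replicate 2, or control high replicate 1 or 2, left a group of 1, and fewer isolated loci were then called. Without a control high replicate the share of all loci called was smaller too.

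The smallest adjusted p of the difference on the positive side belonged to the chromosome 15 locus at 56497181 (both strands). It had 78.4, 50.2, 46.7 and 68.3 CPM in mutant low, against 118, 116, 93.8 and 119 CPM in control low cells, and 21.7 and 30.1 CPM in mutant high, against 5.39 and 2.57 CPM in control high cells. The effects differed by 3.54 on the log2 scale (SE 0.44, edgeR adjusted p = 0.000683), and by 4.20 without control high replicate 1. On chromosome 8 (105156894 to 105309011, minus strand) the level was 576 ± 50.8 CPM in mutant low and 659 ± 173 CPM in control low cells (SD, n = 4 each), and 230 and 194 CPM in mutant high, against 49.1 and 35.7 CPM in control high cells. Low libraries overlapped there while high ones did not, and the difference was 2.51 (SE 0.37, edgeR adjusted p = 0.00145). The loci on chromosomes 12 (12268944 to 12383167) and 6 (107479778 to 107520204) had differences of 3.44 and 2.60 (edgeR adjusted p = 0.000813 and 0.00139). All 4 calls were kept in every setting tried.

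On the negative side stood the chromosome 4 locus at 81936076, which rose in both populations but by less in high cells. It had 156 and 134 CPM in mutant high, against 68.8 and 49.1 CPM in control high cells (log2 fold change 1.30), so the effects differed by -2.33 (SE 0.43, edgeR adjusted p = 0.0045). The chromosome 8 transcript at 56040080 had 9.06 ± 1.92 CPM in mutant low and 9.46 ± 3.79 CPM in control low cells (SD, n = 4 each), and its difference of -2.66 was lost without control high replicate 1 or either mutant high replicate (edgeR adjusted p = 0.0885, 0.0562 and 0.0565). The differences of -1.75 on chromosome 15 (42256270 to 42536162) and -1.43 on chromosome 8 (118206841 to 118230794) were also lost without single high libraries. For chromosome 15 that was any of the 4 (edgeR adjusted p = 0.0532 to 0.0615), and for chromosome 8 control high replicate 1 or mutant high replicate 2 (edgeR adjusted p = 0.128 and 0.0962). Both chromosome 8 differences were also lost in the set of 8 libraries (edgeR adjusted p = 0.0761 and 0.0769).

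**Figure D5:**
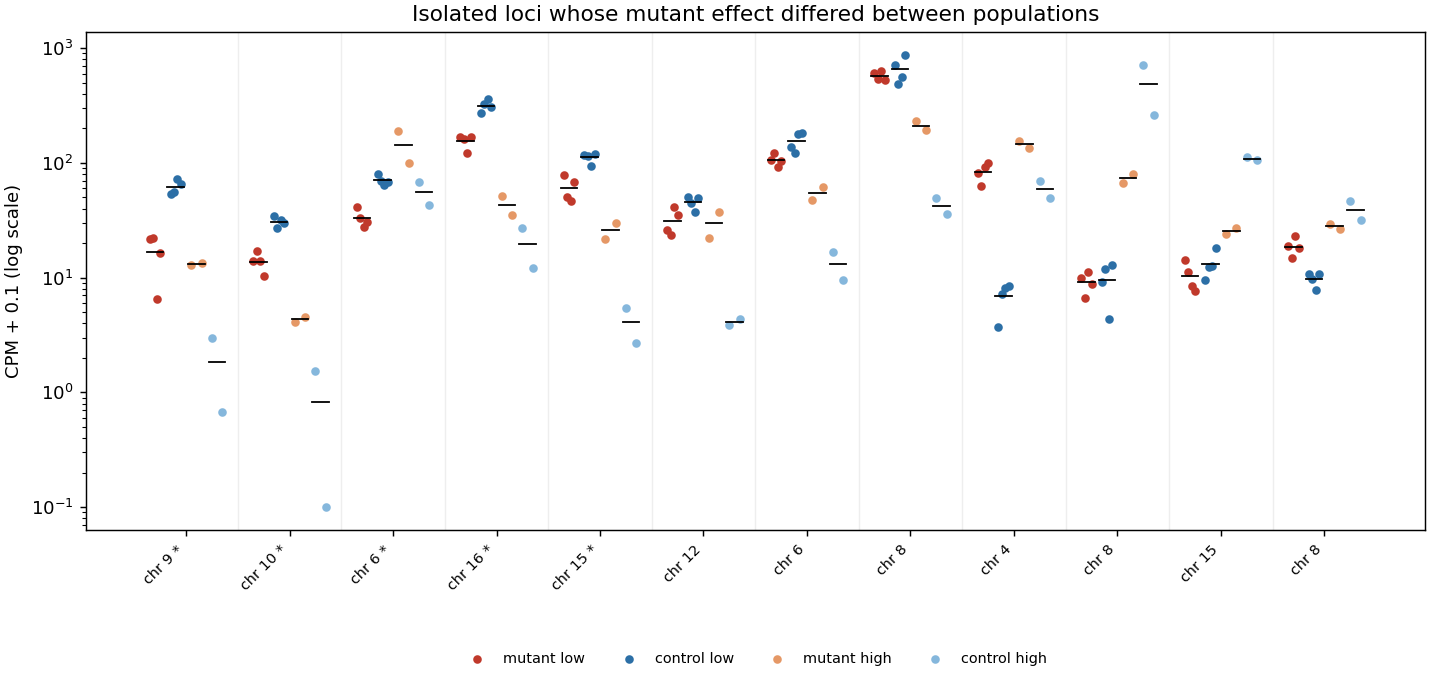
Level in CPM plus 0.1 on a log scale (vertical axis) at 12 isolated loci whose mutant effect differed between populations (horizontal axis, with the chromosome), by library and group, with bars for group means. Stars mark the 5 loci lower in mutant low and higher in mutant high cells. The first 8 have a more positive and the last 4 a more negative effect in high cells.

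Between high and low control cells, 110 of the 191 isolated loci tested were called, 42 higher and 68 lower in high than in low control cells. That was 57.6%, near the background of 53.6%, and it stood below the background without the filter on low counts (37.1% against 37.4%) and at a distance limit of 500 kb (47.9%). Of the 191, 22% were higher, beside 25.8%, and 35.6% lower, beside 27.8%. The median log2 fold change was -0.40, against -0.13 over all loci, and -0.30 against -0.03 with RLE in place of TMM scaling. In mutant kidneys 77 were called (40.3%, beside 32.9%), 40 higher (20.9%, beside 19.4%) and 37 lower (19.4%, beside 13.4%) in high than in low mutant cells, and 51 were called without mutant high replicate 2. Medians were -0.09 for isolated and -0.03 for all loci tested.

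Several loci marked high cells in both genotypes. The chromosome 8 transcript uc009kub.1 had 27.0 ± 5.89 CPM in mutant high (n = 2) and 0.254 ± 0.193 CPM in mutant low cells (SD, n = 4; log2 fold change 6.82, SE 0.50, edgeR adjusted p = 3e-07). In controls it had 127 and 70.3 CPM in high cells and at most 1.31 CPM in low cells (log2 fold change 6.48, SE 0.43, edgeR adjusted p = 7.02e-08). Both the chromosome 4 locus at 25536479 and a transcript on chromosome 10 (121885554 to 121890509, plus strand) had log2 fold changes of 6.57 and 6.09 in control and 5.40 and 5.44 in mutant cells. Both stood lower in mutant high than in control high cells, at 10.1 and 12.6 CPM against 31.1 and 33.1 CPM for the chromosome 10 transcript (edgeR adjusted p = 0.0335). The fourth of the largest rises in control cells was the chromosome 9 transcript at 46721685, with 6.01 and 3.43 CPM in control high cells and 2 fragments in all 4 control low libraries, a ratio of 91.8 with an exact binomial interval of 23.8 to 783.

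Other isolated loci marked low cells. The most abundant of these was on chromosome 1 (14159038 to 14300280, minus strand), with 28.2 and 3.14 CPM in control high cells, against 941, 735, 623 and 846 CPM in control low cells. The log2 fold change was -5.62 (SE 0.66, edgeR adjusted p = 1.16e-05), and leaving out control high replicate 1 or 2 gave -7.98 or -4.80. In mutants the levels were 46.4 and 64.1 CPM in high and 368, 377, 348 and 394 CPM in low cells (log2 fold change -2.75, SE 0.56, edgeR adjusted p = 0.00199). No overlap of the groups occurred in either genotype, and the gap between the populations was smaller in the mutants by 2.87 on the log2 scale (edgeR adjusted p = 0.0218). Mutant low libraries all lay under the control low libraries at this locus, but the log2 fold change of -1.08 did not pass the test (SE 0.40, edgeR adjusted p = 0.122). The chromosome 15 locus at 64530596 had a lone fragment in the control high libraries, and the ratio of low to high fragments in controls was 63.9 with an exact binomial interval of 11.4 to 2532. In mutants, a transcript group on chromosome 7 (124524492 to 124811144, plus strand) had 3.17 ± 0.83 CPM in high (n = 2) and 17.0 ± 6.63 CPM in low cells (SD, n = 4; log2 fold change -2.42, SE 0.47, edgeR adjusted p = 0.00128).

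Remaining loci named for a population difference stood at low levels. On chromosome 10 (113835876 to 114238426), neither control high library had a fragment, and the level was at least 2.83-fold lower than the 1.08 ± 0.792 CPM of control low cells (SD, n = 4). Leaving out any 1 of the 6 control libraries gave bounds of 1.19 to 3.47. That call was lost without either control high replicate (edgeR adjusted p = 0.125 and 0.095) and in a fit of the 2 control groups alone (0.0519). A transcript on chromosome 14 (111147799 to 111154371) had 3.17 and 3.93 CPM in mutant high cells, against 0.231, 0, 0 and 0.0807 CPM in mutant low cells, a ratio of 42.9 with an exact binomial interval of 14.1 to 214. Another chromosome 14 locus (87056129 to 87540921) and the chromosome 11 locus at 92959723 were lower in high than in low mutant cells, by log2 fold changes of -2.75 (SE 0.60) and -2.51 (SE 0.76). The chromosome 11 call was lost without mutant high replicate 1, mutant high replicate 2 or mutant low replicate 4 (edgeR adjusted p = 0.0732, 0.154 and 0.0527) and in the set of 8 libraries (0.0662).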

How the data were processed

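RNA sequencing values came from 1 deposited table with 12 libraries, made from cDNA of a SMART-Seq v4 kit per the labels' protocols. Its values are the authors' estimated counts for each transcript, deposited without normalization, which the title line of the table calls raw fragments of CuffDiff2. Bowtie2, HTSeq, DESeq2 and the build mm9 are named in the submitters' processing notes, with no role or version. Not given in the sources used here were aligner settings, strand use and how multiple alignments were treated. Fragments shared between near-identical copies or between overlapping antisense transcripts are therefore uncertain.

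Of 55418 rows, 303 had no position and no fragments and were dropped. The other 55115 transcripts were merged to 23995 loci, whose summed counts were whole within 0.01 for 99.8% to 99.9% of loci per library and were rounded. These sums took the place of counts per gene. All 12 libraries entered 1 fit of 4 groups in edgeR 4.0.16 under R 4.3.3 (quasi-likelihood F test, robust, TMM, filterByExpr), with Benjamini-Hochberg adjustment over 12556 loci, a two-sided threshold of 0.05 and no covariate. Each SE is the absolute log2 fold change divided by the square root of the F statistic, so it is no evidence apart from the p-value. The fit was tested on simulated data first. DESeq2 1.42.0 and other settings were tried as alternatives. Libraries within a group differed far beyond sampling noise, so none was taken for a copy of another.

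Members and lists were chosen with earlier results of these data known. Named loci have an adjusted p under 0.05, a log2 fold change of 1 or more in size, at least 1 CPM in the higher group and CPM ranges that do not overlap. The 8 largest rises and falls were named for mutant against control, the 4 largest for high against low, and the 4 smallest adjusted p in each direction for the difference of mutant effects. A further part of the rule, on level per length, was not applied because the table gives spans and no exon lengths. Lists of marker genes and developmental regulators could not be used without gene names, and identifiers are printed for the 2 largest rises and 2 largest falls in low cells only. Sequences are not shown, since a genome of this build was not used here. Bounds use a floor of 3 fragments over a group, and intervals are exact binomial intervals at 95% that cover counting error only. Library totals were 4549011 to 12365078 fragments, and after TMM adjustment the 2 control high libraries were the smallest, so precision is lowest there.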

Additional observations from a re-analysis of the deposited data

Results flagged for a closer look

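Among 34 groups of 4 low libraries, 32 were levels at the 16 loci named for low cells and 2 were shares of fragments on isolated loci. In 2 of the 34 the highest library stood apart from the other 3 beyond Dixon's limit at 95%. Normal values pass that limit in about 1 in 20 groups. Most of these groups were levels at loci picked for their change, some near zero, so that rate may not hold here. Both were control low groups at a named locus. At the chromosome 12 locus (50483869 to 50508333) the gap took the whole range (1), because only control low replicate 2 had a fragment. At the chromosome 4 locus (90917456 to 91066675) control low replicate 2 had 2.05 CPM, and its gap took 0.860 of the range.

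At 13 of the named loci, and at the chromosome 16 locus with opposite calls (73892550 to 74411157), the mutant effect in high cells differed from that in low cells by the interaction test of edgeR. For loci with opposite calls the choice all but fixes this. The difference on the log2 scale was 4.70 on chromosome 9 (23027519 to 23289646), 3.54 on chromosome 15 (56497181 to 56526101), 3.52 on chromosome 10 (22823973 to 23070592) and 3.44 on chromosome 12 (12268944 to 12383167). It was 2.18 at the chromosome 16 locus, 2.87 on chromosome 1 (14159038 to 14300280) and 4.08 on chromosome 15 (64530596 to 64753858), where the control high libraries held a lone fragment. It was 2.60 and 2.48 on chromosome 6 (107479778 to 107520204 and 117118552 to 117131386) and 2.51 on chromosome 8 (105156894 to 105309011). The effect was more negative in high cells, by -2.66 and -1.43, at 2 loci of chromosome 8 (56040080 to 56146231 and 118206841 to 118230794), by -2.33 on chromosome 4 (81936076 to 82151212) and by -1.75 on chromosome 15 (42256270 to 42536162). All 14 differences use the 2 control high libraries, which had the smallest sizes after TMM adjustment and the largest shares on chromosome M, and the part of these in the differences was not tested.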

How the results depend on the processing

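Counts of isolated loci called were recomputed under each alternative. Other distance limits change which loci are isolated. At 100 kb, of 440 loci tested, the counts were 70 for low cells, 177 for high cells and 78 for the difference of effects. They were 245 for high against low in control and 172 in mutant cells. For low and high cells that was 15.9% and 40.2%, against 8.65% and 28.6% of all loci. At 500 kb, of 48 loci tested, the counts were 9, 25, 10, 23 and 20 in the same order. These were 18.8%, 52.1%, 20.8%, 47.9% and 41.7%, against 8.65%, 28.6%, 11.2%, 53.6% and 32.9% of all loci. Restricting the fit to 8 libraries with description numbers shared by the populations left 182 isolated loci tested. It gave 6 for low cells (3.30%, against 2.04% of all loci) and 24 for the difference of effects (13.2%, against 6.91%). Settings chosen after seeing the data gave 21 for low libraries with numbers up to 7, and 17 for low and 38 for high cells among loci above 20 CPM. Leaving out 1 library at a time gave 23 to 33, 44 to 88, 18 to 41, 90 to 113 and 51 to 79 for the 5 comparisons in the order above. DESeq2 gave 42, 86 and 39 for the first 3.

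Same-numbered replicates were not paired by the labels, and their deviations did not correlate throughout (r of 0.063, 0.277, 0.091 and 0.463 in low cells and -0.061 in high cells). The replicate block was built on title numbers and not on description numbers. With it the counts were 36, 92, 46, 111 and 70. The first 3 were 18.8%, 48.2% and 24.1% of isolated loci tested, against 10.2%, 33.3% and 14.6% of all loci. With this block 3 named calls were not kept. These were chromosome 12 at 120681882 in high cells, chromosome 10 at 113835876 between control populations and chromosome 11 at 92959723 between mutant populations (edgeR adjusted p = 0.0519, 0.0618 and 0.0588). The share of isolated loci called stood above the background in all 29, 27 and 25 settings of the first 3 comparisons and in all 26 for mutant high against low, but in 24 of 26 for control high against low. For low and high cells the ratio of these shares was 1.61 to 2.88 and 1.40 to 1.82. No named locus changed sign. Of 1191 values of named loci under alternatives, 1093 kept their call and 98 lost it. A fit of only the groups compared does not apply to the difference of effects. Depth limits loci with few fragments in control high cells.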

Other observations

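Isolated loci were spread unevenly over the chromosomes. Chromosome 1 held 38, chromosome 14 held 34 and chromosome 4 held 31, while chromosome 19 held 4. There were 143 pairs of isolated loci that follow each other with no other locus between them, and 231 of the 429 were in such a pair.

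The group with the highest mean level at an isolated locus was mutant low in 22% of the 191 tested, control low in 28.8%, mutant high in 22% and control high in 27.2%. For the other loci tested the percentages were 24.0, 23.1, 17.9 and 35.0.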
